A study of Homo sapiens with 2 samples.

Results

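A deposited whole-genome bisulfite sequencing (WGBS) record of a CpG holds, beside the methylation reads, the bases read on the opposite strand. Bisulfite does not change G, so an A read there in place of G is what a C-to-T change of the DNA itself would leave. CpGs of chr1 to chr22 with 8 or more such G or A reads in both libraries were eligible, and those with a G share, that is the G reads over the G or A reads, of 0.8 or less in either library were taken as members. Of 155768 eligible CpGs, 5862 were members (3.76%, 95% Wilson interval 3.67 to 3.86%), and they are called low-G CpGs here. The G share chose them and is therefore given as a description, without a test.

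HEK293T, an established line of human embryonic kidney origin, gave both libraries. The library Neg was labelled as the negative control, which the study describes as cells that were not transduced. The library dCas9+3A+HOXA5 came from cells with nuclease-dead Cas9 carrying the SunTag array of peptides, DNMT3A1 (a DNA methyltransferase) joined to an antibody fragment that holds on to those peptides, and a guide RNA against HOXA5, delivered by lentivirus and sorted for fluorescence as a pool of cells. The labels attach the same text on an infection of 30 days to both samples, so only the title separates them, and each group is 1 library, without replicates. All intervals here cover counting error within a library, and a difference between the libraries is not a difference between conditions.

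The cytosine of a CpG is the usual place of DNA methylation in mammals. A methylated cytosine that loses its amino group becomes thymine, whereas an unmethylated one becomes uracil, which repair enzymes recognise readily, and CpGs are therefore known as frequent sites of C-to-T (on the other strand G-to-A) differences between genomes. In bisulfite data such a difference and an unmethylated cytosine both read as T. The caller used by the study divides the C reads by an effective count, the C or T reads multiplied by the G share, and limits the resulting ratio to 1. The raw level below is the C reads over the C or T reads in percent, and the corrected level is that deposited ratio in percent.

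The files combine both strands of a CpG in each pair of columns, so they do not show which of its bases was changed. A change of the C or of the G, with both strands read equally, then removes only part of the G reads. With 50% of the copies changed, the arithmetic of the columns gives a G share of 0.75, a raw level of 50% of that of the unchanged copies and a corrected level of 66.7% of it. With 100% changed, it gives a G share of 0.5 and no C reads. With 33.3% changed, it gives a G share of 0.833, which is above the limit of 0.8. On few reads, sites with expected shares near the limit can fall on either side of it. No autosomal CpG in either file had G or A reads without any G, so a site with A reads alone could not become a member.

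The following windows show low-G CpGs of coding exons with the most opposite-strand reads among those found in both libraries, for which the results per site are given below. Each is the plus strand of GRCh37 (the build of the files, hg19), 51 bases that occur once in that reference, with the CpG in capitals.

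MUC6, first site, chr11:1017747-1017797: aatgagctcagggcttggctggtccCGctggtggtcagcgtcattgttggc
MUC6, second site, chr11:1017043-1017093: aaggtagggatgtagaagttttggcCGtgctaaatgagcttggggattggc
PDE4DIP, chr1:145014238-145014288: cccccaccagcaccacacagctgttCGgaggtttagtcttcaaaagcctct
NPY4R and NPY4R2, chr10:47087655-47087705: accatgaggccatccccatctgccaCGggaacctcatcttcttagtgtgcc
RIC8B, chr12:107208894-107208944: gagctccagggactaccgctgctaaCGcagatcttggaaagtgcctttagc
CALHM1, chr10:105218229-105218279: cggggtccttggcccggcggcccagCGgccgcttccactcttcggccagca
PGLYRP4, chr1:153313019-153313069: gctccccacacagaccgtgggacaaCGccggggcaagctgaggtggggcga
TAF5L, chr1:229730426-229730476: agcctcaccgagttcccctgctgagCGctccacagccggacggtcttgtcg

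A further set shows sites where the G share was far below the limit or where the libraries disagreed. They are CpGs of introns or of intergenic sequence, again in GRCh37 on the plus strand with the CpG in capitals.

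Intergenic, chr4:3839971-3840021: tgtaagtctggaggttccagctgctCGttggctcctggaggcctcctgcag
Intergenic, chr12:66742-66792: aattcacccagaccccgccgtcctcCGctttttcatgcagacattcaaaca
CAPN1 intron, chr11:64957336-64957386: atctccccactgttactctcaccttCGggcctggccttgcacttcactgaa
EFCAB2 intron, chr1:245272788-245272838: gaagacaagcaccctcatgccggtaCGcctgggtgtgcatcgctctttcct
KCNK3 intron, chr2:26933171-26933221: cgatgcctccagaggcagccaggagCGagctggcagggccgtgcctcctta

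Depth set what could be seen. Neg held 86081157 G or A reads over 22577702 autosomal CpGs and dCas9+3A+HOXA5 44663379 over 15475692, and the C or T reads had a median of 3 and 2 per listed CpG. The 155768 eligible CpGs are thus a small, deeply covered part of the 14111071 autosomal CpGs listed in both files. Neg had a median of 10 G or A reads at them, dCas9+3A+HOXA5 of 9.

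The first comparison asked how far the libraries shared their low-G CpGs. In Neg, 3062 eligible CpGs were at or under the limit (1.97% of all eligible) and in dCas9+3A+HOXA5 4119 were (2.64%). Both libraries were low at 1319 CpGs (0.847% of the eligible), which is 43.1% of the Neg list, 32% of the dCas9+3A+HOXA5 list and 22.5% of all members (Wilson interval 21.5 to 23.6%). Another 1743 CpGs were low in Neg only and 2800 in dCas9+3A+HOXA5 only. At those low in Neg only, dCas9+3A+HOXA5 had no A read at 1257 (72.1%), and at those low in dCas9+3A+HOXA5 only, Neg had none at 1762 (62.9%). Over all eligible CpGs, the shares without an A read were larger, 92.8% in dCas9+3A+HOXA5 and 88.1% in Neg. Of the members low in Neg only, 43.9% rested on exactly 2 A reads, and 43.0% of those low in dCas9+3A+HOXA5 only did. Among CpGs low in both, 2 A reads carried the call at 11.3% in Neg and at 13.8% in dCas9+3A+HOXA5.

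**Figure D1:**
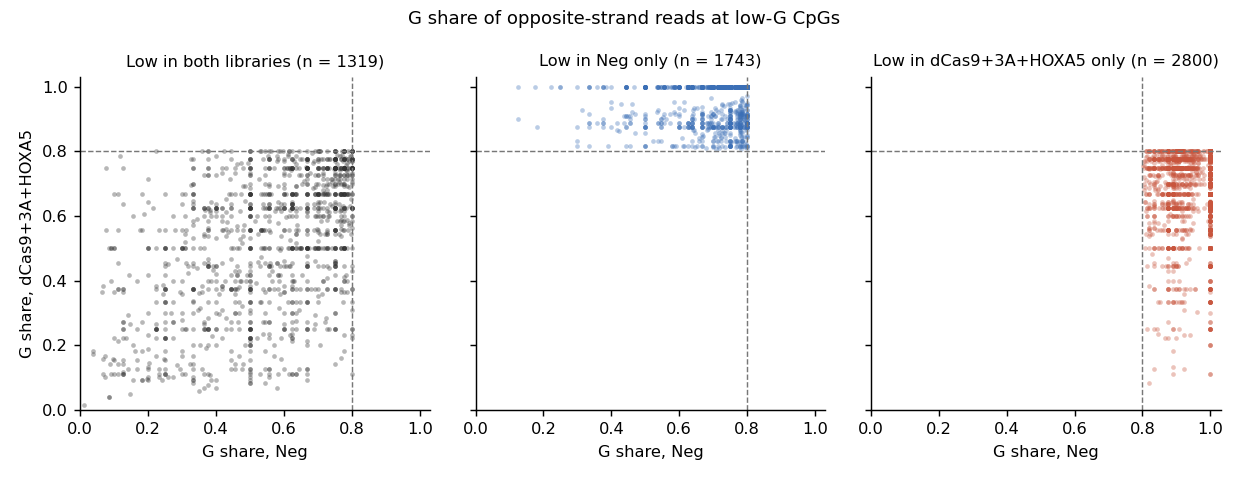
G share (G reads over G or A reads of the opposite strand, no unit) in Neg on the x axis and dCas9+3A+HOXA5 on the y axis, 1 point per low-G CpG, for the 1319 CpGs low in both libraries, the 1743 low in Neg only and the 2800 low in dCas9+3A+HOXA5 only. Dashed lines mark the limit of 0.8, points lie on lines because few reads give few possible shares, and points of the single-library groups gather at a share of 1 in the other library.

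The share found in both libraries was larger in deeper classes. Where the lower of both depths was 8 reads, 19.0% of 2443 members were low in both (17.5 to 20.6%). At 12 to 15 reads the value was 28.5% of 541 (24.8 to 32.4%), at 30 to 99 reads 49.0% of 104 (39.6 to 58.5%) and at 100 or more reads 71.0% of 31 (53.4 to 83.9%). All CpGs with 30 or more reads in both libraries were over 3 times the median depth of dCas9+3A+HOXA5, so these classes hold only very deep sites. These shares are a description, since the G share that chose the members also sets how many A reads a CpG of a given depth needs. The lowest depth class also held the most members, so that the overlap over all members is mainly that of CpGs with few reads.

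**Figure D2:**
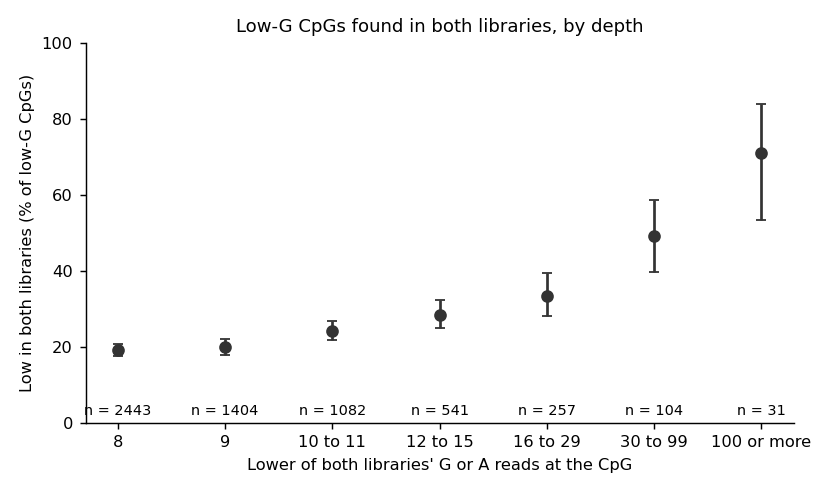
Share of low-G CpGs that were low in both libraries (percent, y axis) by the lower of both libraries' G or A reads at the CpG (x axis, unequal classes), with 95% Wilson intervals as bars and the number of low-G CpGs under each point. The share was 19.0% at 8 reads and 71.0% at 100 or more reads. Classes from 30 reads upwards hold only sites over 3 times the median depth of dCas9+3A+HOXA5.

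How much of the opposite strand had changed varied widely. Over the CpGs low in both libraries the median G share was 0.6 in Neg (quartiles 0.417 and 0.727) and 0.556 in dCas9+3A+HOXA5 (0.375 and 0.7). Neg reached down to a share of 0.0122, dCas9+3A+HOXA5 to 0.0141, which only sites over 3 times the median depth can reach. In Neg, 645 of the 1319 lay above 0.6, 357 above 0.4 and up to 0.6, 229 above 0.2 and up to 0.4, and 88 at 0.2 or less, and in dCas9+3A+HOXA5 these counts were 582, 331, 272 and 134. A share below 0.5, which is lower than a change of 1 base in every copy gives with equal strands, was read at 417 of them in Neg and at 499 in dCas9+3A+HOXA5.

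Members just inside the limit had a G share of 0.8, at 340 CpGs in Neg and at 374 in dCas9+3A+HOXA5, and the nearest CpGs outside it had 0.801 and 0.804. Low-G CpGs of a single library sat closer to the limit, with a median share of 0.75 in the library where they were low, for Neg and for dCas9+3A+HOXA5 alike.

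At the CpGs low in both libraries, the G shares differed by 0.16 on average, and at 911 of the 1319 (69.1%) by 0.2 or less. As a description over CpGs, whose range the limit truncates and which do not stand in for replicates, Pearson's r of both shares was 0.485. With 20 or more reads in both libraries, 118 such CpGs were left, of which 96 differed by 0.2 or less, and r was 0.727.

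The methylation reads of low-G CpGs were then set beside those of their neighbours. All eligible CpGs had a mean raw level of 69.4% in Neg and 74.2% in dCas9+3A+HOXA5, with an SD over CpGs of 32.7 and 33.6. CpGs low in both libraries averaged 20.7% (SD 23.6) and 21.99% (SD 26.4). No C read at all was found at 429 of them in Neg (32.5%) and at 534 in dCas9+3A+HOXA5 (40.5%), against 7.41 and 9.19% of all eligible CpGs. Around them, CpGs that were not members and lay within 200 bp with 5 or more C or T reads had a mean raw level of 57.9% in Neg (SD 29.4, around 1238 sites) and 63.7% in dCas9+3A+HOXA5 (SD 31.1, around 1176 sites). The raw level was below that of the neighbours at 86.4% of these sites in Neg and at 84.1% in dCas9+3A+HOXA5, where 44.4 and 36.3% of all eligible CpGs were below theirs. C or T reads and G or A reads of a CpG come from the same sequenced fragments, so the levels and the G share are not separate measurements of the DNA.

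Among the CpGs low in both libraries, the raw level went with the G share. In Neg it averaged 4.49% at a G share of 0.2 or less (81 sites with neighbours), 12.7% above 0.4 and up to 0.5 (181 sites) and 33.4% above 0.7 (362 sites), while the neighbours stayed between 53.6 and 63.7% in all classes. In dCas9+3A+HOXA5 the same classes averaged 5.25, 16.4 and 34.4%, with neighbours between 60.7 and 67.7%. When sites were put in classes by the G share of the other library, the raw level of Neg was 8.51% in the lowest class (127 sites) and 29.2% in the highest (288 sites), and that of dCas9+3A+HOXA5 was 6.51% (78 sites) and 31.2% (346 sites). The order of the classes at the ends was the same where the classes came from reads of the other library. The G shares of both libraries chose these sites, so this order is a description and not a separate check.

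The deposited correction raised these levels but left them under those of the neighbours. CpGs low in both libraries went from a raw mean of 20.7% to a corrected mean of 33.7% in Neg and from 21.99 to 37.7% in dCas9+3A+HOXA5. Where neighbours were measured, the corrected level stayed 24.0 points below them in Neg (mean difference -24.0, SD 39.7) and 26.3 points below in dCas9+3A+HOXA5 (-26.3, SD 46.4). At a G share of 0.2 or less, the corrected level was 42.7% of the neighbours' level in Neg and 42.6% of it in dCas9+3A+HOXA5, and above 0.7 it was 76.5 and 70.7%. A corrected level cannot rise where no C was read, so the sites without a C read stayed at 0.

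**Figure D3:**
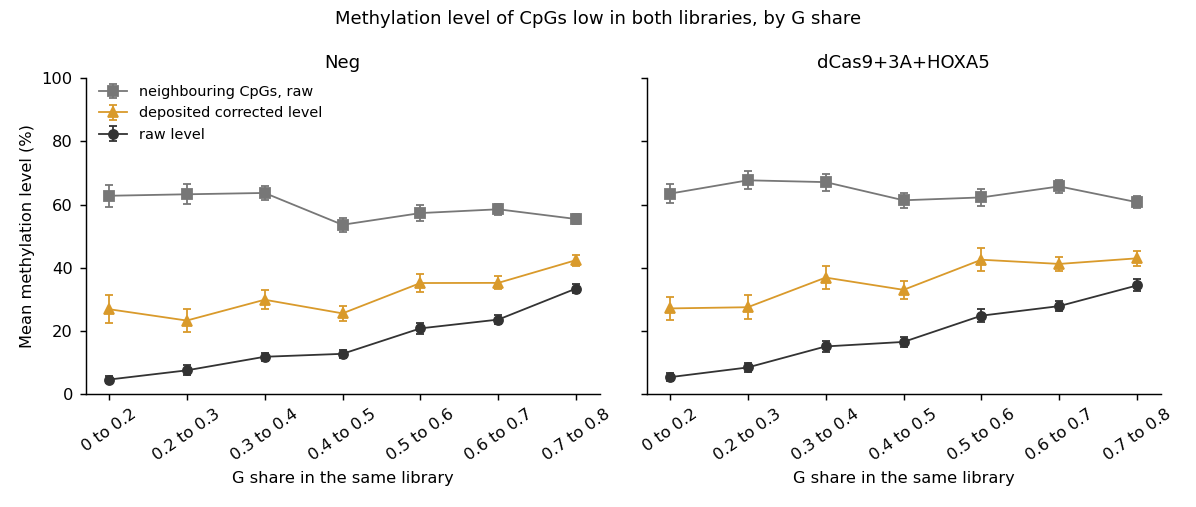
Mean methylation level (percent, y axis) of CpGs low in both libraries by their G share in the same library (x axis, classes), for Neg and dCas9+3A+HOXA5. Circles are the raw level, triangles the deposited corrected level and squares the raw level of neighbouring CpGs, and bars are the standard error over CpGs, which are not replicates. In Neg the raw level was 4.49% in the lowest class and 33.4% in the highest, and in both libraries the corrected level lay between raw level and neighbours in every class.

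CpGs low in a single library lay closer to their neighbours. In the library where they were low, the raw level of CpGs low in Neg only was below that of the neighbours by a mean difference of -11.6 points (SD 28.3) and at 61.5% of sites, against 44.4% of all eligible CpGs. For CpGs low in dCas9+3A+HOXA5 only the mean difference was -6.09 points (SD 28.1), with 48.8% of sites below the neighbours against 36.3% of all eligible CpGs. In the library where they were not low, it was -1.64 points (SD 24.9) for this group in Neg. For CpGs low in Neg only it was -5.51 points (SD 30.5) in dCas9+3A+HOXA5. All eligible CpGs had -0.561 points in Neg and -0.319 in dCas9+3A+HOXA5. CpGs low in dCas9+3A+HOXA5 only had a mean raw level of 63.0% in dCas9+3A+HOXA5, where their mean G share was 0.695, and of 63.4% in Neg, where it was 0.961. Between the libraries, CpGs that were not members differed by 4.85 points and the neighbours of this group by 3.30 points, with dCas9+3A+HOXA5 the higher in both. The correction lifted the level of CpGs low in dCas9+3A+HOXA5 only to 74.1% in dCas9+3A+HOXA5, which was 5.02 points above their neighbours (SD 28.1, 2529 sites). In Neg their corrected level was 65.2%. Their mean difference between the libraries, dCas9+3A+HOXA5 minus Neg, was thus -0.398 points raw and 8.91 corrected. CpGs low in Neg only averaged 50.8% in that library against 61.9% in dCas9+3A+HOXA5, and their corrected level in Neg was 62.7%, 0.36 points above the neighbours (SD 29.9, 1615 sites). Since these groups were chosen by a difference in G share between the libraries, their differences in level between the libraries are a description. At a G share of 0.5 or less, a raw level above 50% was read at 12 of 512 CpGs low in both libraries (2.34%) in Neg and at 15 of 596 (2.52%) in dCas9+3A+HOXA5. Among CpGs low in a single library it was read at 7 of 100 in Neg and at 117 of 247 (47.4%) in dCas9+3A+HOXA5. At the sites of all 4 counts most C or T reads were C although no more opposite-strand reads were G than A, so the CpGs are called by their rule and not by the name of a variant.

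The limit of the ratio at 1 acted on many low-G CpGs. The C reads exceeded the effective count, so that the ratio was cut to 1, at 596 members in Neg (10.2%) and at 1305 in dCas9+3A+HOXA5 (22.3%), beside 1.71 and 1.80% of all eligible CpGs. At CpGs low in dCas9+3A+HOXA5 only, this concerned 1183 of 2800 in that library (42.3%), and at those low in Neg only 445 of 1743 in Neg (25.5%). Only 64 and 82 of the 1319 low in both libraries were cut. Over all members, the corrected level was 7.32 points above the raw level in Neg (SD 11.4) and 9.27 points above it in dCas9+3A+HOXA5 (SD 14.3), and over all eligible CpGs 0.649 and 0.526 points. From the members' summed reads the gap was 14.1 points in Neg, and 20.002 in dCas9+3A+HOXA5.

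Coding exons were the annotated class with the smallest share of low-G CpGs. By GENCODE annotation, 293 of 14976 eligible CpGs in coding exons were members (1.96%, Wilson interval 1.75 to 2.19%), against 2126 of 47297 intergenic CpGs (4.50%, 4.31 to 4.69%). Promoters, taken as CpGs within 500 bp of a protein-coding gene start outside coding exons, had 2.44% (2.01 to 2.97%), other exons 3.11% (2.84 to 3.41%) and introns 3.86% (3.72 to 4.0%). For CpGs low in both libraries the shares of the eligible were 0.227% in coding exons and 1.24% in intergenic sequence. The intervals of coding exons and intergenic sequence did not overlap for either count, and those of coding exons and promoters did. These intervals take CpGs as separate although close ones can lie on the same fragments, so their overlap is a description and not a test. Median depths of the eligible CpGs were 10 and 9 reads in coding exons and 10 and 10 in intergenic sequence. With single-copy windows at ordinary depth only, the member shares were 1.95% in coding exons and 4.03% in intergenic sequence.

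CpG-poor surroundings held more low-G CpGs than CpG-rich ones. With 1 to 3 CpGs within 250 bp, the CpG itself counted, 4.84% of 9710 eligible CpGs were members (4.43 to 5.29%), and with 41 or more it was 2.62% of 7705 (2.29 to 3.00%). Methylation around the site showed another order. Where the neighbours of both libraries averaged above 80%, 2.64% of 79815 were members (2.53 to 2.76%), where they averaged 20% or less 4.04% of 13069 (3.72 to 4.39%), and between these 5.32% of 47340 (5.12 to 5.52%). By the base before the C, shares lay between 3.29% for A (3.12 to 3.47%) and 4.01% for G (3.83 to 4.21%). By the base after the G, they lay between 3.38% for T (3.21 to 3.56%) and 3.93% for C (3.75 to 4.12%).

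Repeated sequence went with more members, and so did high depth, but not at the deepest sites. CpGs whose 51-base window occurs more than once in the reference were members at 5.98% of 15788 (5.62 to 6.36%), those with a single occurrence at 3.51% of 139980 (3.42 to 3.61%). A window that occurs elsewhere with TG or CA in place of CG was present at 12694 eligible CpGs, 6.43% of which were members. Depth over 3 times the median in either library went with 6.15% members (5.65 to 6.70%) and, among them, a larger share low in both libraries (35.8% against 21.3% at lower depth). By the lower of both depths, 3.26% were members at 8 reads, 6.14% at 16 to 29 and 4.97% at 30 to 99. At 100 or more reads 3.25% of 955 were members (2.30 to 4.57%). Windows with a single occurrence, without such TG or CA copies and at ordinary depth left 132786 eligible CpGs, of which 4442 were members (3.35%) and 989 low in both libraries, with mean raw levels of 20.9% in Neg and 22.2% in dCas9+3A+HOXA5. Raw levels of the CpGs low in both libraries were thus about as low without very deep sites and windows repeated by exact match. Such a match does not show copies that differ at other bases or are missing from the reference. Sites called single-copy here can therefore still lie in repeated sequence.

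**Figure D4:**
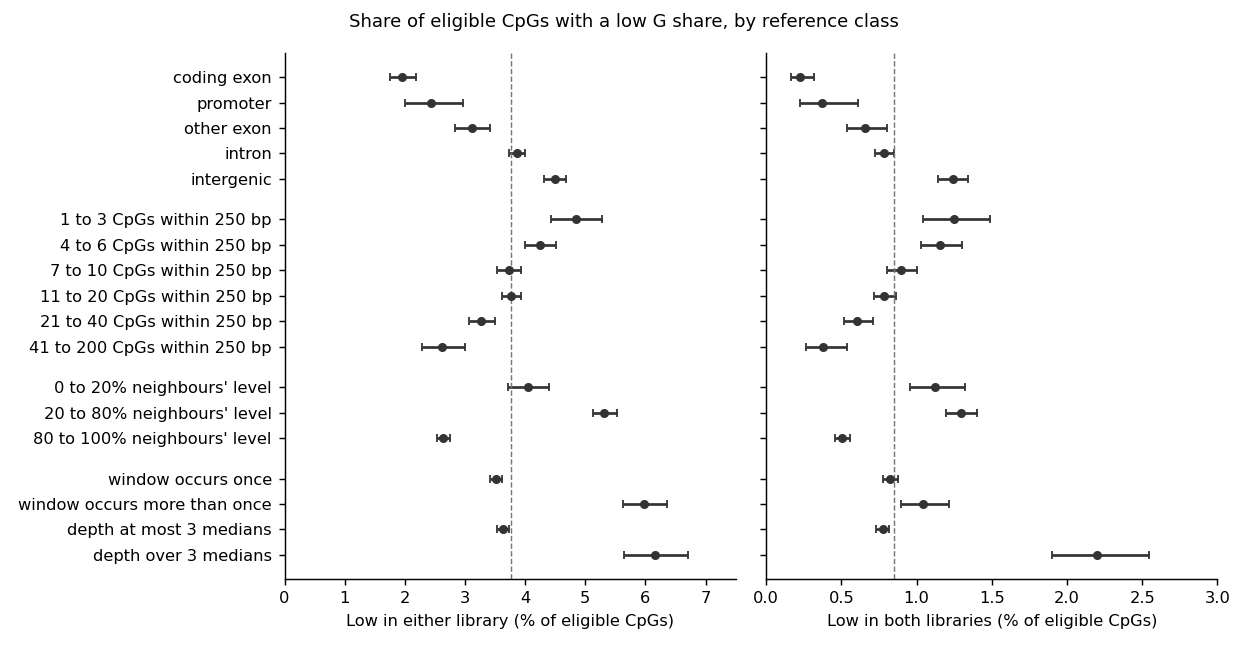
Share of eligible CpGs that were low in either library (left) and low in both libraries (right), in percent on the x axis, by annotation, number of CpGs within 250 bp, mean raw level of the neighbours, and copies and depth. Bars are 95% Wilson intervals, which cover counting error only, and dashed lines mark all eligible CpGs (3.76 and 0.847%). Classes by TG or CA copies are not plotted. Of the classes plotted, coding exons lie lowest on the left at 1.96%, and sites with depth over 3 medians highest at 6.15%.

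Low-G CpGs lay close to each other at times. Another member was within 50 bp of 775 members (13.2%), and a member was within 50 bp of 3.97% of the 149906 eligible CpGs that were not members. Another CpG low in both libraries was within 50 bp of 87 of the 1319 (6.60%), and such a CpG was within 50 bp of 1.08% of the other eligible CpGs. Sites this close can lie on the same sequenced fragments. By chromosome, members made up between 2.65% of the eligible CpGs (chromosome 22) and 5.75% (chromosome 4), where 79 of 4049 were low in both libraries (1.95%). Within 50 kb of the guide targets of HOXA5 (10 eligible CpGs) and KLF4 (24) and within DNMT3A (21), no member was found, where 3.76% of all eligible CpGs were members, and within 50 kb of the guide target of BACH2 no CpG was eligible.

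Low-G CpGs of coding exons were next followed singly. Of the 1319 CpGs low in both libraries, 1021 had a window that occurs once and ordinary depth, TG or CA copies here not left out, and 33 of these lay in coding exons. The 10 with the most opposite-strand reads fell into a set without any C read and a set with some. CALHM1, the gene of a voltage-gated ATP-permeable channel of taste cells, belonged to the former. Its CpG had 7 G among 12 reads in Neg and 5 among 12 in dCas9+3A+HOXA5, and 0 of 12 C or T reads were C in either library, which allows levels up to 24.2% (Wilson). Its neighbours averaged 94.6% over 21 CpGs in Neg and 94.8% over 24 in dCas9+3A+HOXA5.

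TAF5L, which codes for a subunit of histone acetyltransferase complexes, had the same outline. G made up 7 of 11 reads in Neg and 4 of 12 in dCas9+3A+HOXA5, no C was read among 11 and 12 C or T reads, and the neighbours averaged 90.6 and 89.5%. At ELAPOR1, a regulator of autophagy, 10 of 17 and 8 of 10 reads were G, no C was read among 17 and 10 reads, and the neighbours averaged 81.7 and 85.2%. At PGLYRP4, a peptidoglycan recognition protein, 11 of 14 and 7 of 9 reads were G and no C was read among 14 and 9, but here the neighbours averaged only 26.3 and 27.8%. In CALHM1, TAF5L and ELAPOR1 the upper limits of the level, at most 27.8%, were far below the neighbours in both libraries, and in PGLYRP4 the neighbours lay inside the interval of dCas9+3A+HOXA5, up to 29.9%, and above that of Neg, up to 21.5%. The correction changed none of them, since it multiplies a count of 0.

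MUC6, a secreted mucin of the stomach, held 2 of the 10 sites. At the first, 16 of 21 reads in Neg and 8 of 11 in dCas9+3A+HOXA5 were G, and 14 of 22 and 7 of 11 C or T reads were C, a raw level of 63.6% in both. The deposited ratio put it at 83.5 and 87.5%, and its neighbours averaged 73.7 and 81.7%. The second had 12 of 19 and 6 of 9 G reads, a raw level of 25% (5 of 20) and 33.3% (3 of 9), and corrected levels of 39.6 and 50%, with neighbours at 56.1 and 39.7%.

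NPY4R, the receptor for pancreatic polypeptide, shares its site with NPY4R2 in the annotation lifted to GRCh37. Its window occurs once by exact match, which does not show copies that differ by a base or are missing from that reference. G was 6 of 18 reads in Neg and 8 of 12 in dCas9+3A+HOXA5, and C was 5 of 19 and 5 of 10. The raw levels of 26.3 and 50% became 78.9 and 75% by the correction, near the neighbours at 73.7 and 76.2%. At PDE4DIP, which codes for the centrosomal and Golgi protein myomegalin, 15 of 20 and 5 of 11 reads were G, the raw levels were 55.0 and 27.3%, and the corrected ones were 73.3 and 60.0%, beside a single neighbour at 22.2 and 50%.

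RIC8B, a chaperone of G protein alpha subunits, and GPRIN2, a gene linked to neurite outgrowth, differed more between the libraries. At RIC8B, 10 of 13 reads in Neg and 10 of 17 in dCas9+3A+HOXA5 were G, and 7 of 12 C or T reads were C in Neg against 1 of 17, with neighbours at 95.7 and 100%. At GPRIN2, 7 of 11 and 7 of 14 reads were G, and 4 of 10 C or T reads were C in Neg against 0 of 13. By Fisher's exact test on the C and T reads, two-sided and with Benjamini-Hochberg adjustment over all 155768 eligible CpGs, neither difference passed (adjusted p = 0.183 and 0.457).

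**Figure D5:**
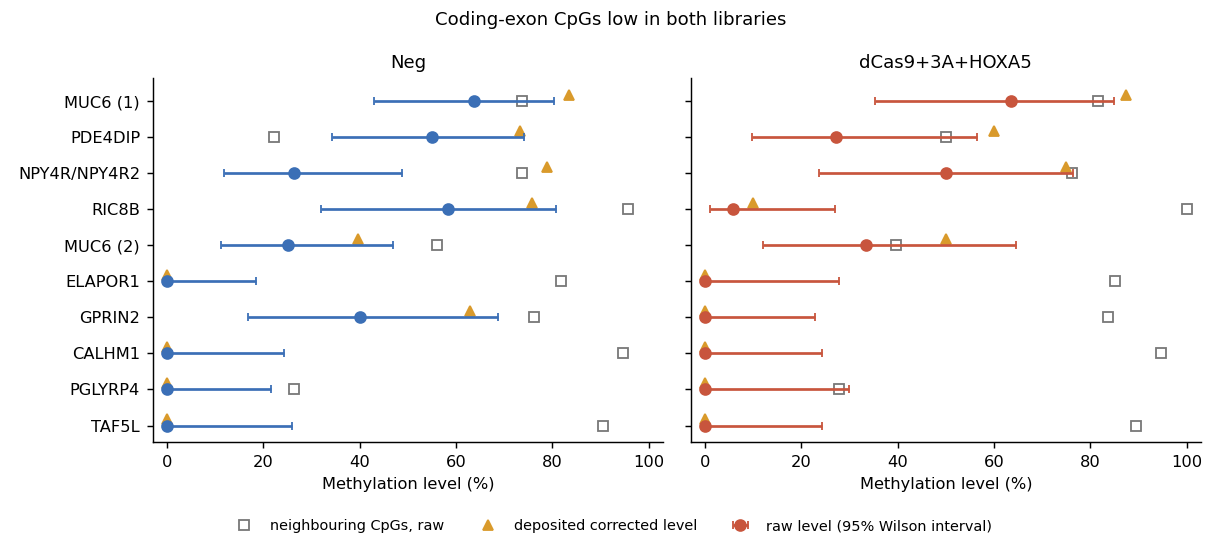
Methylation level (percent, x axis) of the 10 coding-exon CpGs low in both libraries with the most opposite-strand reads, in Neg and dCas9+3A+HOXA5. Circles with bars are raw levels with 95% Wilson intervals, triangles the deposited corrected level and open squares the mean raw level of neighbouring CpGs. CALHM1, TAF5L, ELAPOR1 and PGLYRP4 stood at 0 raw and corrected in both libraries.

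At the lowest G shares among single-copy sites of ordinary depth, single reads decided the corrected level. The intergenic CpG of chr4:3839971-3840021 had 1 G of 14 reads in Neg and 1 of 10 in dCas9+3A+HOXA5. In Neg, 1 of 13 C or T reads was C, a raw level of 7.69% (1.37 to 33.3%) that the deposited ratio gave as 100%, and in dCas9+3A+HOXA5 0 of 10 were C, which it gave as 0%. At chr21:11076207-11076257, in an intron of the long non-coding RNA ENSG00000290523, 1 of 15 and 1 of 9 reads were G, and C was 0 of 15 in Neg but 2 of 9 in dCas9+3A+HOXA5, so that the corrected level was 0 against 100%.

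At single-copy sites of ordinary depth low in both libraries, rises by the correction were ranked by their mean over both libraries, leaving out sites cut to 1. The 5 largest were from raw levels between 6.25 and 36.4% to corrected levels between 88.9 and 100%. Both ends of the raw range came from an intergenic CpG in chr4:190201866-190201916, with 1 of 16 C reads in Neg and 4 of 11 in dCas9+3A+HOXA5. The CpG of chr12:66742-66792 had 1 G of 8 reads and 1 C of 8 in Neg, and 1 of 9 for both in dCas9+3A+HOXA5, and its corrected level was 100% in both libraries, beside neighbours at 76.8 and 68.2%. In the intron of CAPN1, the gene of the protease calpain 1, 1 of 10 reads was G and 1 of 10 C in Neg, and 2 of 9 for both in dCas9+3A+HOXA5, again with a corrected level of 100%. OTOP1, a proton channel gene, had raw levels of 11.1% (1 of 9) and 15.4% (2 of 13) at an intronic CpG and corrected levels of 88.9 and 100%. At a G share of 0.5 or less, the C reads equalled the G reads at 40 of 512 CpGs low in both libraries in Neg and at 93 of 596 in dCas9+3A+HOXA5. Wilson intervals at these sites were wide, for example 1.79 to 40.4% for the raw level of the CAPN1 site in Neg.

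Single-library members with the largest gap in G share showed both patterns of C reads. EFCAB2, an EF-hand gene, had a CpG in an intron with 10 of 10 G reads in Neg and 1 of 9 in dCas9+3A+HOXA5, yet 11 of 11 and 13 of 13 C or T reads were C. The site of KCNK3, a potassium channel gene, had 8 of 8 G reads in Neg and 2 of 10 in dCas9+3A+HOXA5, with 8 of 8 and 9 of 10 C reads. In MTAP, an enzyme of methionine salvage, G was 8 of 8 reads in Neg and 1 of 9 in dCas9+3A+HOXA5, and 2 of 5 and 0 of 9 C or T reads were C. EFCAB2 and KCNK3 thus kept C reads at or near 100% in the library with few G reads, and MTAP had few of both there. In the other direction, NUB1, which binds the ubiquitin-like protein NEDD8, had 1 of 8 G reads in Neg and 9 of 9 in dCas9+3A+HOXA5, with 1 of 8 and 0 of 6 C reads. MEAK7, an mTOR signalling gene, had 2 of 9 G reads in Neg and 10 of 10 in dCas9+3A+HOXA5 at a promoter CpG, with 3 of 7 and 7 of 10 C reads.

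The comparison of the libraries asked whether the C reads of low-G CpGs differed as those of other CpGs did. Over all members the raw level averaged 50.02% in Neg against 53.4% in dCas9+3A+HOXA5, a mean difference of 3.39 points (SD over CpGs 23.8; 5.34 points by the corrected level and 11.1 from summed reads), and over all eligible CpGs it was 4.79 points (SD 22.9). At CpGs low in both libraries the mean difference was 1.33 points by the raw level (SD 18.4) and 4.01 by the corrected level. Their raw level was higher in dCas9+3A+HOXA5 at 482, lower at 463 and equal at 374. A raw level more than 20 points higher in dCas9+3A+HOXA5 was read at 1151 of 5862 members (19.6%), where the share over all eligible CpGs was also 19.6%. More than 20 points lower were 785 members (13.4%), against 10.7% of all eligible CpGs. The groups of members had unlike shares: 13.3% were more than 20 points higher and 9.55% lower among CpGs low in both libraries, 32.2 and 9.06% among those low in Neg only, and 14.8 and 17.9% among those low in dCas9+3A+HOXA5 only. By Fisher's exact test as above, 33 members passed an adjusted p under 0.05, 28 of them higher and 5 lower in dCas9+3A+HOXA5. This is 0.563% of the members, beside 0.555% of all eligible CpGs, and the count for members is therefore near the background. The test compares the reads of both libraries and not the conditions.

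CpGs low in both libraries supplied 4 of these 33 (0.303% of their group). Those low in Neg only supplied 12 (0.688%) and those low in dCas9+3A+HOXA5 only 17 (0.607%), beside 0.555% of all eligible CpGs. With rounded effective counts these numbers were 2, 7 and 17. All 4 sites low in both libraries had a window that occurs more than once or a depth over 3 medians. The single-library groups were chosen by a difference between the libraries in reads of the same fragments, so their calls are counted as a description. Among CpGs low in both libraries, the 5 with the largest differences in raw level at single-copy sites of ordinary depth did not pass. DNAH3, a dynein heavy chain gene, had 7 of 9 and 0 of 8 C reads (adjusted p = 0.148, Fisher's exact test), whereas LYST, a gene of lysosomal trafficking, had 0 of 8 and 6 of 8 (adjusted p = 0.261, Fisher's exact test). The differences went in both directions, on 8 or 9 C or T reads per library at both sites.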

How the data were processed

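Both deposited files hold, per CpG, counts of reads with C, with C or T, and with G and with G or A on the opposite strand. The authors trimmed reads, aligned them to hg19 and called methylation with BSMAP (2.90 in the submitters' processing notes), and for duplicate reads the handling is not given in the sources used. The authors also deposited an estimated count, the C or T reads times the G share, and the deposited fraction is C over it, limited to 1. The files were joined on chr1 to chr22 and the rule was applied with pandas 2.3.3. Annotation came from GENCODE lifted to GRCh37. Copies of the 51-base windows were counted by exact match on both strands, since the reference marks no repeats. Fisher's exact test (two-sided, Benjamini-Hochberg) was run on C and T reads over all eligible CpGs and tested on simulated data. Only CpGs with more reads than usual were changed there, and by a large amount, so recovery at the usual depth was not tested. Shares carry Wilson intervals (95%, scipy 1.17.1), which cover counting error only. Groups came from the titles, 1 library each.

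Members and lists were chosen with earlier results of these data known. Sites were named by rule among CpGs low in both libraries with depth of at most 3 medians and a single-copy window: 10 in coding exons with the most opposite-strand reads, 5 with the lowest G share, 5 with the largest rise by the correction not cut at 1 (a ratio of exactly 1 was allowed), 5 with the largest raw difference, and, low in a single library, 3 each way with the largest gap in G share. Those not described were left out for room, and some named sites are not reported here. Alternatives varied depth, the limit, copies, neighbours and summed reads.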

Additional observations from a re-analysis of the deposited data

How the results depend on the processing

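No paired analysis was possible because both groups hold a lone library. Of 38 alternatives, 17 left a value within 1.5 times (counts), its Wilson interval (shares) or the half-width of the Wilson interval of the members' summed reads (levels), 21 moved it and 0 reversed it, and the cause was not tested. All were run on members as a whole. The difference between the libraries at CpGs low in dCas9+3A+HOXA5 only, which changed sign by the corrected level, was not among them. A minimum depth of 12 left 933 members with 33.5% low in both libraries, and of 20 left 251 with 47.0%, against 5862 and 22.5%. A limit of 0.7 gave 2776 and 28.4%, one of 0.9 gave 14750 and 19.6%, and depth of at most 3 medians gave 21.3%. Leaving out windows with TG or CA copies, an alternative chosen after seeing the data, kept 5046 members. The corrected minus raw level was 14.1 points in Neg and 20.002 in dCas9+3A+HOXA5 from summed reads, 8.26 and 10.6 with 10 or more C or T reads, and 8.83 in dCas9+3A+HOXA5 with single-copy windows, against 7.32 and 9.27. With neighbours within 500 bp, members differed from them by -13.0 (raw) and -5.62 (corrected) points in Neg, against -12.5 and -5.21, and by -14.4 and -5.18 in dCas9+3A+HOXA5, against -13.9 and -4.67. With neighbours of 8 or more reads the raw difference in dCas9+3A+HOXA5 was -14.5. The mean difference between the libraries at members was 5.34 points by the corrected level and 11.1 by summed reads, against 3.39. Over all eligible CpGs it was 4.67 by the corrected level, against 4.79. Rounded effective counts gave 26 called members in place of 33. With few reads per CpG, the depth limits every single site.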

Other observations

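Of the 33 low-G CpGs past the threshold for C reads, 5 lay in MTND1P23 or MTND2P28, pseudogene copies of mitochondrial genes on chromosome 1, an interval looked at after these values were seen. From 564442 to 566063 of GRCh37, 22 CpGs were eligible, 9 were members, and all 9 were low in dCas9+3A+HOXA5 only. The G share of the 9 was between 0.818 and 0.973 in Neg and between 0.0833 and 0.786 in dCas9+3A+HOXA5. The rule for this group sets which side of 0.8 these shares lie on. Their raw level had a median of 13.4% in Neg (5.56 to 81.8%) and 69.7% in dCas9+3A+HOXA5 (50 to 100%). The 13 other eligible CpGs had median raw levels of 7.78 and 0%. At the site with the most reads in MTND2P28, position 565713, 629 of 706 reads were G in Neg and 18 of 136 in dCas9+3A+HOXA5, while 109 of 658 and 124 of 136 C or T reads were C. Neg had a median depth of 218 reads over the interval, dCas9+3A+HOXA5 of 17.

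Outside this interval, the CpG low in both libraries with the smallest adjusted p (Fisher's exact test, 4.43e-06) lay on chromosome 19 at position 27732681, where 1266 of 1988 reads were G in Neg and 193 of 373 in dCas9+3A+HOXA5, and 572 of 2048 and 52 of 374 C or T reads were C.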
